A study of Rattus norvegicus with 6 samples.

Results

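Cortical patterning transcription factors were followed in rat neuronal progenitor cells given a glucocorticoid. The set held 9 genes by name, Pax6, Emx2, Lhx2, Otx2, Nr2f1, Nr2e1, Gli2, Gli3 and Eomes, and every probe set that the array's annotation gives to one of these symbols was taken. That gave 9 probe sets for 7 of the genes, out of 31099 probe sets on the array, with 2 probe sets each for Otx2 and Eomes. Gli3 and Nr2e1 were not analysed here, since the annotation used pairs no probe set with either symbol. The study cultured progenitors from the cerebral cortex of rat embryos at day E15.5 on fibronectin in 20 ng/ml basic fibroblast growth factor (bFGF), which keeps them dividing. One group was given corticosterone, the chief glucocorticoid hormone of rats and mice, at 1 µM for 48 h, and the other received its solvent, dimethyl sulfoxide (vehicle), for the same time. Each group had 3 samples on 1 Affymetrix array each, and they formed 3 couples of a corticosterone and a vehicle sample. Nothing states whether the couples were separate cultures or litters. Except in fits that ignore the couples, p-values measure how the difference between corticosterone and vehicle varies from couple to couple, which may be technical.

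Patterning factors divide the early forebrain into regions and set the character of the progenitors in each. In the mouse, Emx2 is high in caudal and medial cortex and Pax6 in rostral and lateral cortex, and the orphan nuclear receptor Nr2f1 (COUP-TFI) is high caudally and laterally, so that opposing gradients mark out areas. Lhx2 is a LIM-homeodomain factor needed for cortical identity, Otx2 a homeodomain factor of forebrain and midbrain, Gli2 and Gli3 are the zinc finger effectors of hedgehog signalling, Nr2e1 (Tlx) sustains neural stem cells, and Eomes (Tbr2) marks the intermediate progenitors that radial glia give rise to.

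Emx2 and Gli2 rose with corticosterone, while Lhx2, Pax6 and Nr2f1 did not pass the test and Otx2 and Eomes were too dim to be tested. Emx2 rose 1.46-fold and Gli2 1.63-fold. Values are MAS5 signals on a linear scale. A fold change was taken on log2(signal + 28.6), which understates the change of dim genes, and was tested with limma with the couple as a term, at a Benjamini-Hochberg adjusted p under 0.05 over the 18625 probe sets that passed a filter on low signal. Of the 7 factors with a probe set 5 passed that filter, and 2 of these changed, both higher. Over all 9910 genes tested, each read through its brightest probe set, 19.5% changed and 11.7% were higher and 7.77% lower (8.36% and 18.3% after median centring), so 2 of 5 is a count too small to set the factors apart from other genes. The median log2 fold change was 0.18 over the 5 factors and -0.0021 over all genes tested.

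The sequences around the transcription starts of the tested factors are shown so that the hormone's response element can be looked for in them. They are RefSeq's, from rat assembly GRCr8, and 4 of the 5 factors were matched in the promoter table used here, all but Emx2. Each runs 5′ to 3′ from 250 bases before to 50 bases after the annotated start, and capitals mark every match to the motifs searched.
Gli2 promoter, chr13:32716369-32716668, minus strand: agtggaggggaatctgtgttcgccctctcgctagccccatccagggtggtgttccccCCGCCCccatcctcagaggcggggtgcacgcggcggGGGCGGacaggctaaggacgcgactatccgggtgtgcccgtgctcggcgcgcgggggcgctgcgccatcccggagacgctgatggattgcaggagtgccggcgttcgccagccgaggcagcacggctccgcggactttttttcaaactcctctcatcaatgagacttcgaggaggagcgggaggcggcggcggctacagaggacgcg
Lhx2 promoter, chr3:42535494-42535793, plus strand: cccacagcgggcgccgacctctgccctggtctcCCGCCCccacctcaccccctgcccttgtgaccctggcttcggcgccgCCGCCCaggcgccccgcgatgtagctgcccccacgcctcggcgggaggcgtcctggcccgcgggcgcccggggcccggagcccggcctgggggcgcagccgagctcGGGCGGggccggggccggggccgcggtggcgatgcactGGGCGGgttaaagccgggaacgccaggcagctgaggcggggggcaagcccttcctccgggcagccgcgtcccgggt
Pax6 promoter, chr3:112590346-112590645, plus strand: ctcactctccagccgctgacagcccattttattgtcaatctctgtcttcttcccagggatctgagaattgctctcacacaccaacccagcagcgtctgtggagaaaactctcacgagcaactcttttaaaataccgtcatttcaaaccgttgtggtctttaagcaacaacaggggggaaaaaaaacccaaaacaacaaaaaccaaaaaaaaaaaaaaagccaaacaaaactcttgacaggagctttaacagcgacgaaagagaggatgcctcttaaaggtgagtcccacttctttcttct
Nr2f1 promoter, chr2:9785875-9786174, minus strand: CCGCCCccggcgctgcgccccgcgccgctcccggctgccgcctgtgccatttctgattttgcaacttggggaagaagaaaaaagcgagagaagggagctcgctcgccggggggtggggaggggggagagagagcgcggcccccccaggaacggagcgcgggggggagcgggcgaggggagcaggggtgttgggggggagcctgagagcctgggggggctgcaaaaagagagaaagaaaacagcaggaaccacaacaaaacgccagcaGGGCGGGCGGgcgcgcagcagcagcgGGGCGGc

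The motifs searched on both strands were the palindromic glucocorticoid response element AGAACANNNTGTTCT, its half-site AGAACA (contained in the former), the GLI site TGGGTGGTC, the homeodomain core TAATTA, the GC box GGGCGG and the TATA box TATAAA. Only the GC box was found, with 2 matches in the Gli2 window, 4 in Lhx2, 4 in Nr2f1 and 0 in Pax6. Among 33469 rat promoters of the same length, 33.1% hold a GC box, 20.7% the glucocorticoid half-site, 14.2% the TATA box, 5.36% the homeodomain core, 0.385% the GLI site and 0.0149% the full glucocorticoid element. The Gli2, Lhx2 and Nr2f1 windows were 68.3%, 80.3% and 70.3% G or C, and the Pax6 window 43.0%, beside a median of 51.7% over all promoters. A match is a string of letters and not a site, and these windows leave out distant enhancers.

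Emx2, the homeodomain factor of caudomedial cortex, had signals of 1209, 1466 and 1207 on the corticosterone arrays of couples 1, 2 and 3, against 812, 927 and 894 on their vehicle arrays. All 3 corticosterone signals lay above all vehicle signals, which was so for 14.8% of the genes tested. The means were 1294 ± 149 with corticosterone and 878 ± 59.3 with vehicle (SD, n = 3 arrays each, as for every mean here). The log2 fold change was 0.54 ± 0.08 (SE; 95% interval 0.36 to 0.72; limma adjusted p = 0.0012), and it was 0.56, 0.65 and 0.42 within the couples. In bulk RNA, more cells of a type and more RNA per cell cannot be told apart. Without the couple as a term the adjusted p was 0.053, so the call was lost.

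Gli2, the hedgehog effector that acts chiefly as an activator, had signals of 274, 390 and 298 with corticosterone, against 117, 289 and 178 with vehicle. Each couple was higher with corticosterone, as with Emx2, which was so for 27.7% of the genes tested. The groups overlapped, since the vehicle array of couple 2 exceeded the corticosterone array of couple 1. The means were 321 ± 61.4 with corticosterone and 195 ± 87.0 with vehicle, and the log2 fold change was 0.70 ± 0.15 (SE; 95% interval 0.38 to 1.03; limma adjusted p = 0.0078). Couples 1, 2 and 3 differed by 1.05, 0.40 and 0.66 on the log2 scale. Without the couple as a term the adjusted p was 0.24, and without the intensity trend it was 0.0499, at the threshold.

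Lhx2, the LIM-homeodomain factor, was at 5497, 5889 and 5824 with corticosterone, against 4500, 5576 and 5147 with vehicle. The corticosterone array was the higher one in each couple, as for 27.7% of the genes tested, and the groups overlapped. The log2 fold change was 0.18 ± 0.06 (SE; 95% interval 0.04 to 0.32), and it did not pass (limma adjusted p = 0.076). With quantile normalization it did (0.20; limma adjusted p = 0.041), and without couple 1 the value was 0.13 (adjusted p = 0.32).

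Pax6, the paired-domain factor of radial glia, was at 1032, 1096 and 947 with corticosterone, against 972, 1173 and 791 with vehicle. The groups overlapped, and couple 2 differed in the direction opposite to couples 1 and 3. The means were 1025 ± 75.0 with corticosterone and 979 ± 191 with vehicle, and the log2 fold change was 0.08 ± 0.09 (SE; limma adjusted p = 0.60). The 95% interval ran from -0.12 to 0.28 (0.92-fold to 1.21-fold), so a change of the size seen in Emx2 lay outside it. Without couple 3 the value was -0.0059, and after median centring of the arrays it was -0.027.

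Nr2f1, the caudolateral nuclear receptor, was at 1306, 1477 and 1051 with corticosterone, against 1282, 1922 and 1674 with vehicle. Couple 1 was level, while couples 2 and 3 were lower with corticosterone, by -0.37 and -0.66 on the log2 scale, and the groups overlapped. The means were 1278 ± 214 with corticosterone and 1626 ± 323 with vehicle, with a log2 fold change of -0.34 ± 0.11 (SE; 95% interval -0.58 to -0.09), which did not pass (limma adjusted p = 0.063). It passed as lower without couple 1 (-0.52; limma adjusted p = 0.0039) and after median centring of the arrays (-0.44; limma adjusted p = 0.014), and its value was -0.17 without couple 3 (adjusted p = 0.32).

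Otx2 and Eomes were left out by the filter, which dropped the dimmest 40% of probe sets (mean signal under 63.6). The background signal was 22.8, the 95th percentile of 27 probe sets for bacterial genes. Eomes, the intermediate progenitor factor, gave 18.4, 4.96 and 2.79 with corticosterone and 7.46, 6.29 and 9.30 with vehicle on its brighter probe set, and no array exceeded background on either probe set. Otx2 gave 7.82, 44.4 and 26.7 with corticosterone and 30.5, 35.5 and 18.8 with vehicle on its brighter probe set, at or under background on 2 of 6 arrays, and its other probe set lay under background on all 6. Signals this low have no reliable order, so no fold change is given.

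**Figure D1:**
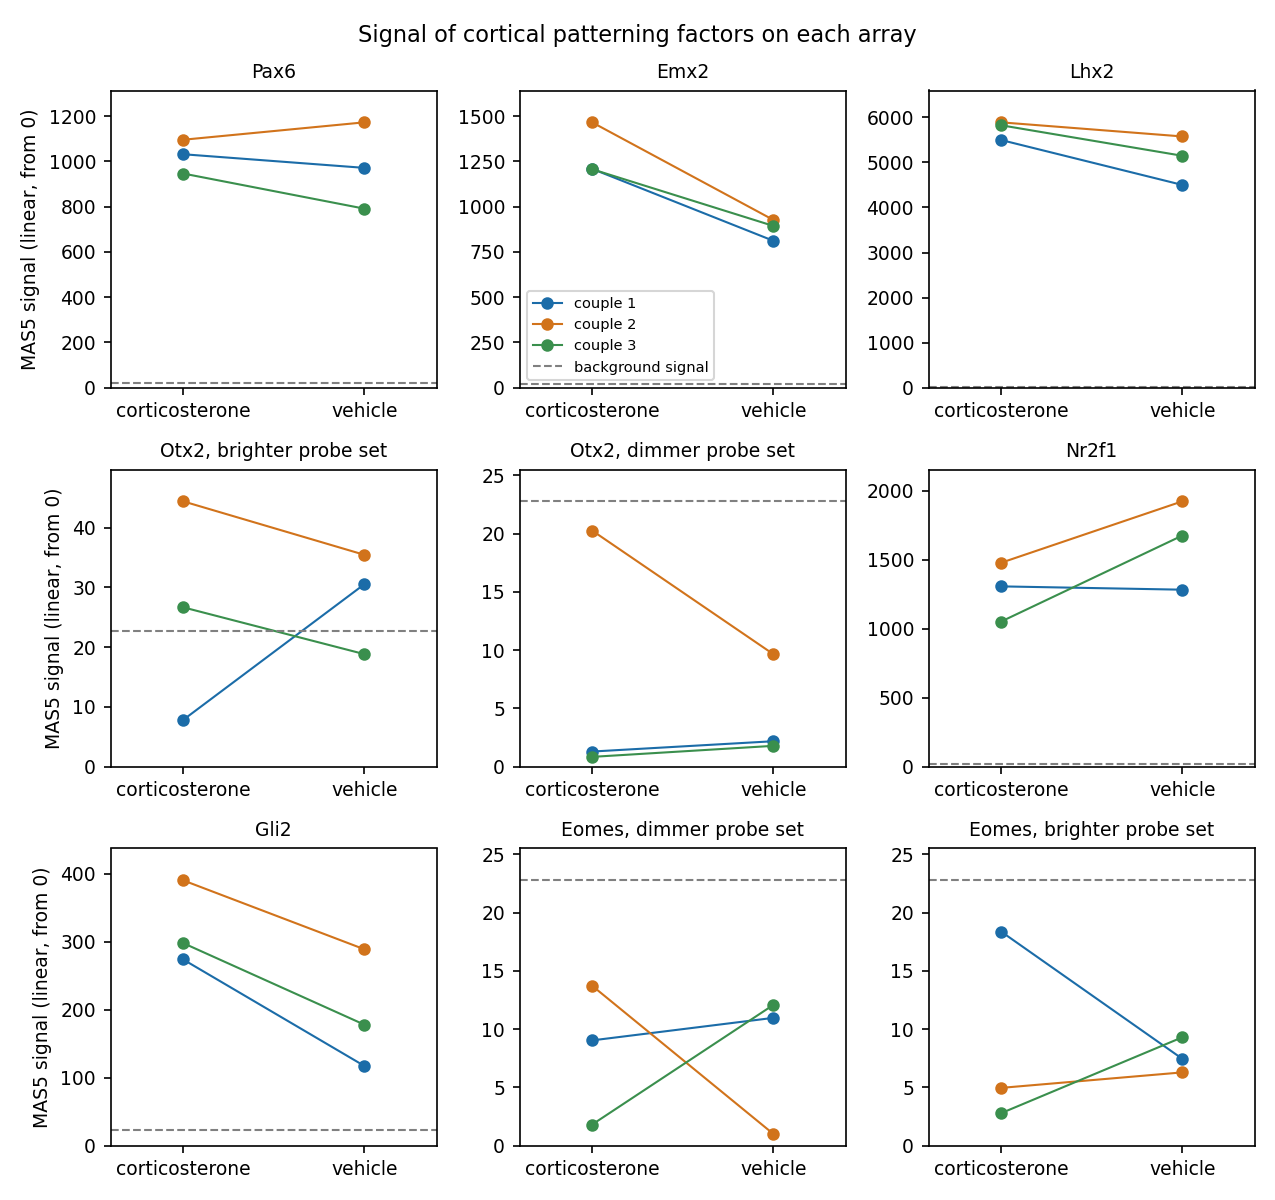
MAS5 signal (linear axis from 0, a separate scale in each panel) of the 9 probe sets on the corticosterone and vehicle arrays, with lines joining the arrays of a couple and a dashed line at the background signal of 22.8. Emx2 and Gli2 are higher with corticosterone in all 3 couples, the Emx2 groups do not overlap, and both Eomes probe sets stay under background.

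The changes of the factors were also set against each other, since a scaling of whole arrays moves all probe sets of an array together. Differences between the changes of 2 factors within a couple were taken for all 10 pairs of the 5 factors. The change of Gli2 exceeded that of Nr2f1 by 1.04 ± 0.27 and that of Pax6 by 0.62 ± 0.30 on the log2 scale (mean ± SD, 3 couples). The change of Emx2 exceeded that of Nr2f1 by 0.88 ± 0.30, that of Pax6 by 0.46 ± 0.29 and that of Lhx2 by 0.36 ± 0.18. The change of Gli2 exceeded that of Lhx2 by 0.52 ± 0.22, and those of Lhx2 and Pax6 exceeded that of Nr2f1 by 0.52 ± 0.29 and 0.41 ± 0.44. Each of these 8 differences was positive in 3 of 3 couples. Every pair was written in the order that makes its mean positive, and the pairs share factors. Of all genes tested 27.7% were higher in all couples and 27.2% lower, so a steady direction is common. An exact two-sided sign-flip test over 3 couples cannot give a p below 0.25, which was reached here (0.31 adjusted over the 10 pairs), so no pair can pass. The change of Gli2 against that of Emx2 was 0.49, -0.25 and 0.24 in the couples, with no steady order, and that of Lhx2 against Pax6 was 0.20, 0.17 and -0.07.

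**Figure D2:**
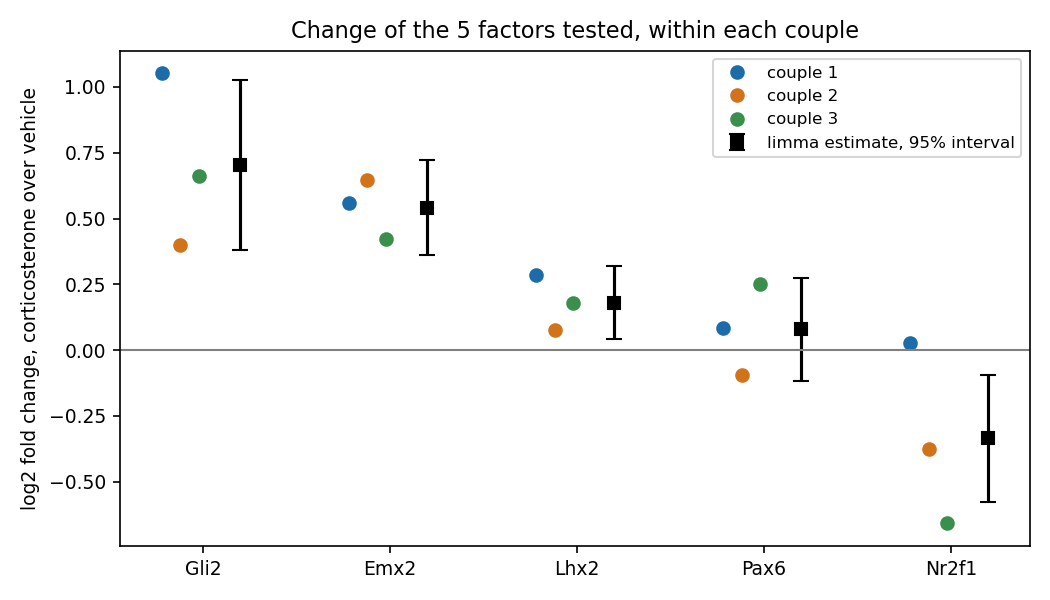
Log2 fold change of corticosterone over vehicle for the 5 factors tested, ordered by their estimate, with a coloured point for each couple and a black square with its 95% interval for the limma estimate. Gli2 (0.70) and Emx2 (0.54) lie above 0 in all couples, Pax6 (0.08) spans 0, and Nr2f1 has couple 1 at 0.03 and couples 2 and 3 below 0.

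Across the 6 arrays, the log2 signals of Lhx2 and Gli2 correlated with r = 0.97, those of Emx2 and Gli2 with r = 0.86 and those of Emx2 and Lhx2 with r = 0.82, while Nr2f1 had r from -0.32 to 0.21 with the other factors. These are descriptions of 6 arrays that share couples and treatment. Among the 9909 other genes tested, Orai1, Timp4 and Acot2 had the patterns most like Emx2 (r = 0.997, 0.996 and 0.996), and Stk3, Hmg20b and Pdzd11 those most like Gli2 (r = 0.995, 0.993 and 0.992). For the factors that did not pass, the closest gene had r = 0.994 with Lhx2, 0.987 with Pax6 and 0.982 with Nr2f1.

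Genes around these factors were read from 6 further lists. The lists were chosen with earlier results of these data known, so their share of calls cannot set them apart from all genes. Of their 62 genes tested, 15 rose and 6 fell, or 33.9%, against 19.5% of all genes tested. After median centring 10 were higher and 13 lower, so the balance of the 2 directions turned with the scaling. Nearly all of these calls rested on the couple term, since without it 3 of the 62 genes passed, Dhh and Phox2a higher and Sfrp2 lower, as against 3.0% of all genes.

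Of the relatives of the factors in the dorsal and general telencephalon, Nfix rose and Bcl11a fell. Of 33 listed genes 16 were tested, of which 1 rose, 1 fell and 14 did not pass, too few to set the list apart from all genes, with a median log2 fold change of 0.08. Nfix, of the nuclear factor I family that acts in gliogenesis, had signals of 1449, 4117 and 2786 with corticosterone, against 1006, 3307 and 1946 with vehicle, up in each couple (0.45 ± 0.07 on the log2 scale, SE; limma adjusted p = 0.0017). The couples differed more from each other than the treatments did, and without the couple as a term Nfix did not pass (limma adjusted p = 0.70), nor without the intensity trend (0.051). The other Nfix probe set, far dimmer, gave 0.40 and did not pass (limma adjusted p = 0.19). The zinc finger gene Bcl11a (Ctip1), active in cortical projection neurons, fell to 294, 285 and 386 with corticosterone, against 504, 490 and 521 with vehicle (-0.62; limma adjusted p = 0.0035), and its other probe set fell too (-0.80; 0.0054). The Bcl11a groups did not overlap, but the call was lost without couple 2 (limma adjusted p = 0.052) and without the couple as a term (0.065). Emx1, Otx1 and Nr2f2, the paralogues of Emx2, Otx2 and Nr2f1, did not pass, with log2 fold changes of -0.13, 0.26 and -0.05 (limma adjusted p = 0.64, 0.38 and 0.73). Nr2f2 signals were 553, 1546 and 650 with corticosterone and 605, 1530 and 673 with vehicle, high in couple 2 in both groups.

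Ventral telencephalic factors and those of more caudal regions were mostly dim. Of 18 ventral factors 10 had a probe set and 2 were tested, the oligodendrocyte lineage genes Olig1 and Olig2, and 0 passed in limma, with 1 lower at an unadjusted p under 0.05. Olig1 was not dim, at 15020, 16880 and 20510 with corticosterone and 16970, 18310 and 20050 with vehicle (-0.09; limma adjusted p = 0.35). Olig2, also a factor of ventral progenitors, was at 760, 644 and 949 with corticosterone and 1327, 856 and 930 with vehicle (-0.38; limma adjusted p = 0.066). It passed as lower after median centring (-0.49; limma adjusted p = 0.029) and without couple 3 (-0.59; 0.0080), and its value was -0.18 without couple 1 (0.44). Of 28 factors of hindbrain, midbrain and spinal cord 16 had a probe set and 4 were tested, of which 1 rose, too few to set the list apart from all genes. That was Phox2a, a homeodomain factor of noradrenergic neurons, at 257, 290 and 160 with corticosterone, against 52.9, 83.2 and 75.8 with vehicle (1.39 ± 0.20, SE; limma adjusted p = 0.00076), with groups that did not overlap.

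Hedgehog pathway genes, whose signal Gli2 and Gli3 carry to the nucleus, had 18 of 25 members tested, of which 5 rose and 13 did not pass, with a median log2 fold change of 0.08. Over all genes tested 11.7% rose and 7.77% fell. The ligand gene Dhh (desert hedgehog) rose to 486, 303 and 287 with corticosterone, against 118, 83.4 and 127 with vehicle, without overlap (1.47 ± 0.17, SE; limma adjusted p = 0.00019). The other genes that rose were the co-receptor Boc (0.59; limma adjusted p = 0.024), the inhibitor of Gli proteins Sufu (0.57; 0.044), the kinase Stk36 (0.65; 0.041) and the casein kinase Csnk1a1 (0.21; 0.030). Stk36 averaged 103 with corticosterone and 55.8 with vehicle, below the filter at 63.6, so it entered the test through the group where it was high, and without the filter its limma adjusted p was 0.12. Csnk1a1 has 3 other probe sets, with log2 fold changes of 0.22, 0.05 and -0.03, and the mean of its probe sets did not pass (0.11; limma adjusted p = 0.35). These 4 lost their calls without couple 1 (limma adjusted p from 0.052 to 0.30), without couple 2 (0.13 to 0.16) and without the couple as a term (0.13 to 0.29), and Dhh was then the 1 gene left, as it was without the filter on low signals. Without couple 3, Stk36 and Csnk1a1 lost theirs (limma adjusted p = 0.11 and 0.14). With quantile normalization or without the intensity trend 3 genes passed, Dhh and Boc among them. Under a stricter filter, where 11 genes were tested, Csnk1a1 alone passed, and Dhh, Boc, Sufu and Stk36 were too dim to be tested. Median centring gave 2 higher (Dhh and Boc) and 2 lower.

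The pathway's own readouts gave little signal. Gli1, a direct transcriptional target of hedgehog signalling, was at 9.06, 3.47 and 5.52 with corticosterone and at 17.0, 29.7 and 7.28 with vehicle, above background on 1 array only, and was not tested. Hhip, another target, was named after its values were seen. It was below the filter at 62.3, 32.3 and 50.6 with corticosterone and 96.1, 44.1 and 52.9 with vehicle. The ligand gene Shh lay under background on all 6 arrays, and Ptch1 was not analysed here.

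Of the signals that pattern the cortex and their modulators, 12 of 26 listed genes were tested, of which 6 rose, 3 fell and 3 did not pass (median log2 fold change 0.24). The shares over all genes tested were 11.7% higher and 7.77% lower. Fgfr2, a receptor for fibroblast growth factors, was at 372, 338 and 192 with corticosterone, against 153, 170 and 134 with vehicle (0.82 ± 0.16, SE; limma adjusted p = 0.0047). Wnt2b, a ligand of the cortical hem, was at 169, 113 and 116 with corticosterone, against 74.3, 69.8 and 47.8 with vehicle (0.80; limma adjusted p = 0.014). The Wnt2b mean with vehicle, 63.9, was at the filter of 63.6, so Wnt2b entered the test through the group where it was high. The bone morphogenetic protein antagonist Nog rose by 0.59 and the Wnt antagonist Sfrp1 by 0.46 (limma adjusted p = 0.027 and 0.0042). Its relative Sfrp2 fell to 690, 551 and 735 with corticosterone, against 1197, 931 and 1102 with vehicle (-0.69 ± 0.09, SE; limma adjusted p = 0.00036), and its other probe set fell as well (-0.98). Tgfa, a ligand of the epidermal growth factor receptor, fell (-0.88; limma adjusted p = 0.0043). The other Sfrp1 probe sets gave 0.31 (limma adjusted p = 0.049) and 0.24, which did not pass (0.24) and was level in couple 2. The other Fgfr2 probe sets were all left out by the filter and shared no direction over the couples. Without couple 2, Fgfr2, Sfrp1 and Nog did not pass (limma adjusted p = 0.063, 0.069 and 0.17), nor did Wnt2b and Nog without couple 1 (0.092 and 0.12), and 3 genes of the list were left without couple 2. Without the intensity trend 5 were left and Sfrp1 did not pass (limma adjusted p = 0.082), under a stricter filter 5 of the 8 tested passed, and Wnt2b and Nog did not pass without the filter (0.063 and 0.092).

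Genes of intermediate progenitors, the population Eomes marks, included genes that rose and genes that fell among those bright enough to test. Of 20 listed genes 10 were tested, of which 2 rose, 2 fell and 6 did not pass, with a median log2 fold change of -0.22. Among all genes tested 11.7% rose and 7.77% fell. The RNA-binding protein gene Elavl2 fell to 511, 441 and 447 with corticosterone, against 854, 605 and 633 with vehicle (-0.54 ± 0.10, SE; limma adjusted p = 0.0038). Its other probe sets gave -0.46 (limma adjusted p = 0.020) and -0.14, which did not pass (0.66) and was higher in couple 1. The Notch ligand family member Dll3 fell by 0.66 on the log2 scale (limma adjusted p = 0.030). The small GTPase gene Rnd2 rose by 0.54 and the bHLH gene Hes6 by 0.21 (limma adjusted p = 0.028 and 0.037). Dll3, Rnd2 and Hes6 did not pass without couple 1 (limma adjusted p = 0.070, 0.079 and 0.13) or couple 2 (0.25, 0.24 and 0.19), nor Hes6 without couple 3 (0.076), and Elavl2 was the 1 gene of the list left without couple 1, couple 2, the filter or the intensity trend. Without the couple as a term 0 genes of this list passed in limma, where the adjusted p of Elavl2 was 0.12. After median centring 1 gene was higher, Rnd2, and 4 were lower, Elavl2, Dll3, Gadd45g and Elavl4, and Hes6 did not pass (0.10; limma adjusted p = 0.29). Neurog2, the proneural factor downstream of Pax6, lay at 12.2, 4.38 and 38.9 with corticosterone and 19.3, 14.8 and 29.6 with vehicle, and was not tested. Neurod1 was at 11.5, 49.8 and 40.6 with corticosterone and 32.5, 76.9 and 76.5 with vehicle, and Tbr1, which follows Eomes in the neuronal lineage, exceeded background on the corticosterone array of couple 1 alone (26.3).

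**Figure D3:**
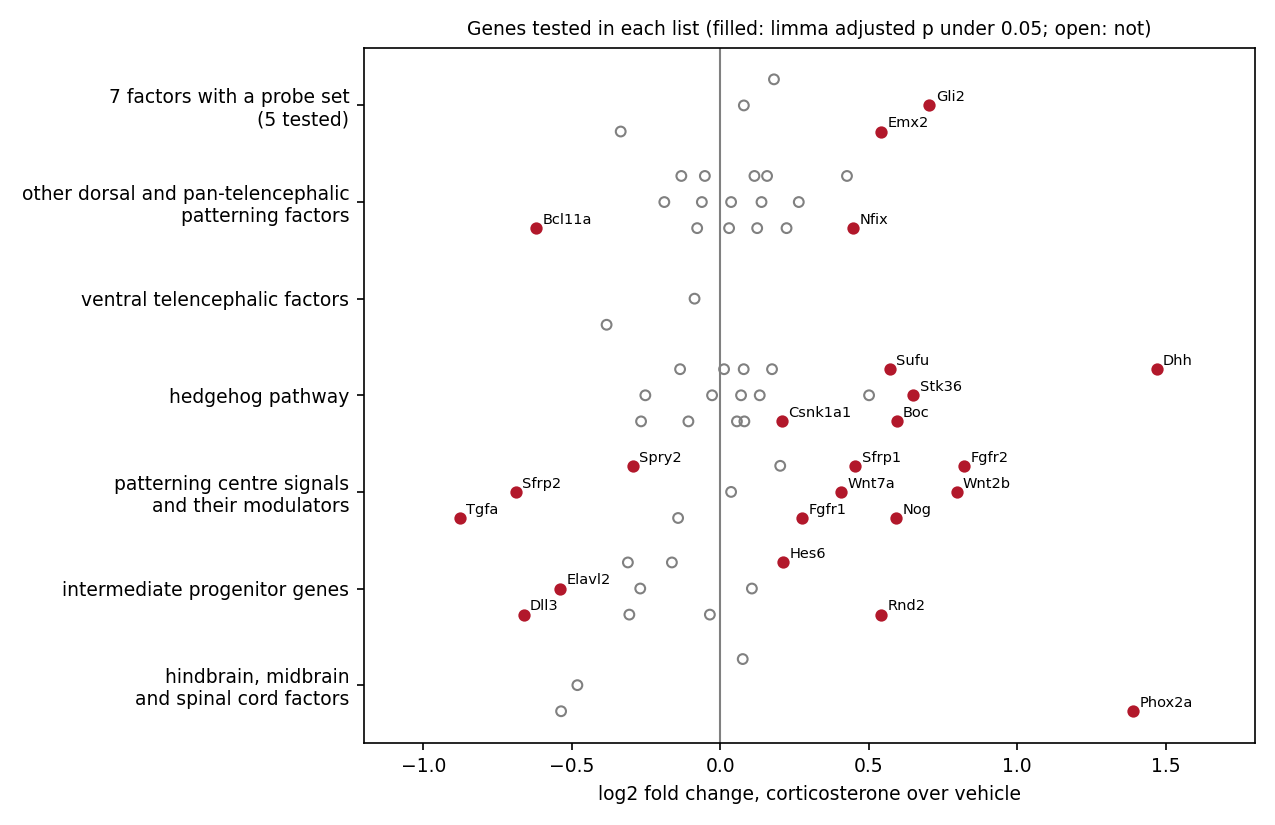
Log2 fold change of corticosterone over vehicle for every gene tested in each list, 1 point per gene and read through its brightest probe set, with filled red points for a limma adjusted p under 0.05 and vertical offsets only to separate points. Gli2 and Emx2 pass among the 5 patterning factors tested, Dhh (1.47) and Phox2a (1.39) lie farthest to the right, and the 2 ventral factors tested are open points.

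Most of the listed progenitor markers were bright enough to test, and some markers of other cell types moved with treatment. The counts below stand beside 11.7% of all genes tested that rose and 7.77% that fell. Of 16 progenitor markers 13 were tested and 3 rose, Nes, Slc1a3 and Hopx, and their summed signal lay from 82707 to 91705 with corticosterone and from 70287 to 86477 with vehicle. Of 9 astrocyte markers 5 were tested and 4 rose, S100b, Gja1, Aldoc and Glul, with sums of 16878 to 21649 with corticosterone, against 8593 to 12049 with vehicle, and Gjb6 under background on every array. Among neuron markers 9 of 15 were tested and 2 fell, Tubb3 and Nefm (sums of 11847 to 14414 with corticosterone and 13664 to 15017 with vehicle), and among oligodendrocyte lineage markers 5 of 10 were tested and 2 fell, Pdgfra and Cnp (18615 to 25300 with corticosterone and 21892 to 27242 with vehicle). Of 15 meningeal, pericyte and fibroblast markers 5 were tested and 3 rose, Fn1, Acta2 and Col1a2 (sums of 1872 to 6233 with corticosterone and 963 to 3026 with vehicle). Of the endothelial and the microglial markers 1 and 3 were tested and 0 passed in limma, also at an unadjusted p under 0.05. Of the 14 marker genes that changed 3 passed without the couple as a term, S100b, Aldoc and Acta2, and 9 without couple 2. Without the intensity trend 6 of the 14 passed, and Sox1, which is not among them, passed as well. With each couple left out in turn Nes lost its call (limma adjusted p = 0.063 to 0.085), as it did after median centring (0.16), and so did Hopx without couple 2 (0.063), Tubb3 without couple 2 or 3 (0.14 and 0.18) and Nefm without couple 1 or 2 (0.17 and 0.073). Cnp also lost its call without couple 1 or 3, and Col1a2 without couple 2. Without the filter 1 of the 4 markers that fell passed, Pdgfra, and after median centring 9 markers were higher and 7 lower. The part of these cell types in the changes of Emx2, Gli2 and the other lists was not tested.

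**Figure D4:**
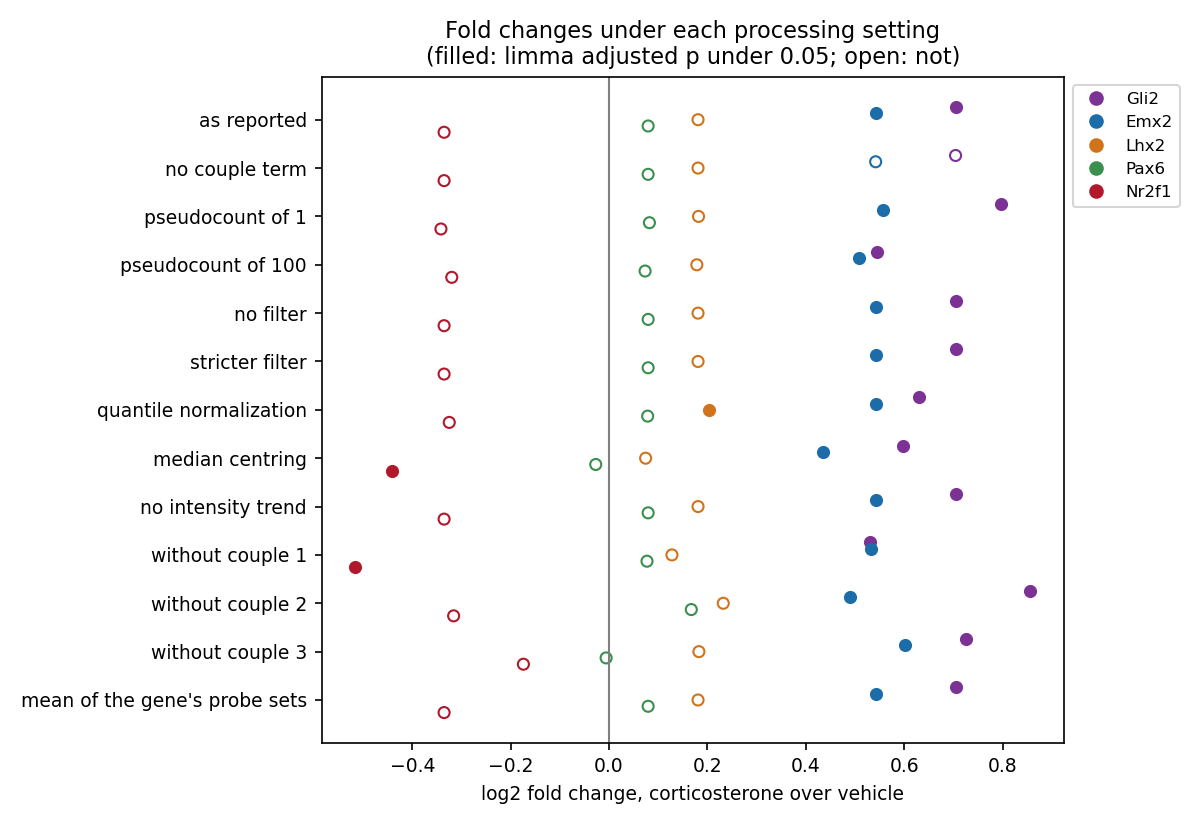
Log2 fold change of corticosterone over vehicle for the 5 factors tested (horizontal axis) under the reported processing and 12 alternatives (rows), filled where the limma adjusted p is under 0.05 and open where it is not. Emx2 and Gli2 are filled in every row but the one without the couple term, Lhx2 is filled with quantile normalization only, and Nr2f1 with median centring and without couple 1.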

How the data were processed

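Total RNA (3 µg) of 6 samples was extracted with TRIzol, made into cDNA from an oligo(dT) primer and hybridised as biotin-labelled cRNA, per the labels' protocols. The authors deposited 1 intensity (signal) for each probe set and array, on a linear scale, and made them with the MAS5 algorithm, per the submitters' processing notes. Its settings were not stated in any source used here. The mean without the lowest and highest 2% was 500.2 on all 6 arrays, so each array had been scaled to 1 mean. Median signals were 124 to 134 with corticosterone and 108 to 122 with vehicle. For 1-colour arrays the number of arrays limits the precision.

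From these values, log2(signal + 28.6) was computed, the pseudocount being the 25th percentile of all values. The 57 control probe sets and the dimmest 40% were left out, and lmFit and eBayes with an intensity trend (limma 3.58.1, R 4.3.3, two-sided) were run on the other 18625, after a check on simulated data. That check recovered 8 of 66 simulated log2 changes of 0.5, 43 of 67 of 1 and 60 of 67 of 2, with 6 false calls. It held far fewer changed probe sets than passed in the real data. A gene that did not pass may therefore still have changed. The annotation gave 1 symbol to 20826 probe sets, several to 436 and none to 9780, and only the first were named. The series' design text says that the samples form couples; same-numbered samples deviated together from their group means (r = 0.57, 0.52 and 0.35 across probe sets), so the couple was a term. A gene was read through its brightest probe set. Text names every probe set of the factors, from each other list the 6 genes past the threshold with the largest change, fixed relatives and targets whether or not they passed, and for the factors that passed the 3 genes of highest correlation. The factors, lists and tests were chosen with earlier results of these data known. Alternatives covered the couple term, pseudocount, filter, normalization, trend, probe set summary and each couple left out.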

Additional observations from a re-analysis of the deposited data

How the results depend on the processing

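Emx2 and Gli2 kept their direction under all 12 alternatives and passed under 11, with log2 fold changes of 0.44 to 0.60 and 0.53 to 0.86. The exception was the unpaired model (no replicate block), with values of 0.54 and 0.70 (limma adjusted p = 0.053 and 0.24), where 0 of the 5 factors passed in limma and 2 were higher at an unadjusted p under 0.05. That fit left 3 genes of the other lists and 417 probe sets past. Pax6 turned to -0.027 with median centring and ranged from -0.0059 to 0.17 with 1 couple left out. Lhx2 passed with quantile normalization (0.20), and Nr2f1 with median centring (-0.44) and without couple 1 (-0.52; -0.17 to -0.52 over the couples left out). With median centring, all probe sets tested had a median log2 fold change of -0.11, against -0.0036 as deposited, and 30.4% of calls were higher, against 59.3%. Relative to that median, Pax6, Lhx2 and Nr2f1 lay at 0.08, 0.18 and -0.33 with both scalings. This holds by construction, since centring moves all probe sets of an array by the same amount, and is no check on the values. The 21 genes past in the other lists became 12 without the filter, 11 under a stricter filter (fewer tested), 11 without the intensity trend and 8 to 18 with 1 couple left out. The 2953 probe sets past became 1862 without the filter, 1262 without the trend and 1192 to 2807 with 1 couple left out; couples 1 and 2 gave the low values (12 and 8 genes, 1677 and 1192 probe sets). Over the 21 genes each taken under its alternatives, 169 fits kept the call and 73 ended it. The counts of their 6 lists stayed within 1.5 times in 47 cases and moved further in 25, and a count that stayed can hold other genes: of the 23 genes past with median centring 16 were among the 21. Where no sentence gives a reason, the cause was not tested. Signals near background limit Otx2, Eomes, Gli1 and Neurog2.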
